A study of Mus musculus with 12 samples.

Results

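Resident (CD45.2) macrophages of the infarct zone were compared with resident macrophages of the remote zone, 2 days after ischemia and reperfusion (I/R) of the mouse heart. The comparison rests on 6 of the 12 bulk RNA libraries of the study, 3 from each zone, chosen by their labels, and it was read across all genes. The other 6 libraries, from recruited (CD45.1) macrophages of the same zones, set the levels beside which the resident values are given.

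All groups came from adult bone marrow chimeras. The host carried CD45.2 with Mx1CreMybflox/flox, and its marrow was ablated without irradiation by 4 injections of polyI:C, an agent that switches on the interferon-driven Cre and so deletes the transcription factor Myb from blood-forming cells. Marrow of congenic C57BL/6 CD45.1 mice was then given, and a chimerism above 90% was stated after 4 weeks. The left anterior descending artery was closed and reopened. Ischemic tissue lay distal and remote tissue proximal to the ligation. Ischemia and place in the heart thus cannot be told apart. About 1000 macrophages per sample were sorted as live CD45+, lineage-negative, CD11b+, F4/80+ and CD64+ cells that were CD45.1+ or CD45.2+. In the study's gating of heart myeloid cells, lineage stands for CD11c, Ter119, Tcrb and Nk1.1, a gate meant to leave out cells that carry markers of dendritic, red, T and NK cells. The 4 groups were thus CD45.2 remote, CD45.2 infarct, CD45.1 remote and CD45.1 infarct. All came from hosts that had polyI:C, transplantation and I/R, with no sham-operated heart among them. The CD45.1 marrow was given after the polyI:C, and the Mx1CreMybflox/flox genotype is stated for the host only. Origin, genotype and exposure to polyI:C thus differ together between CD45.2 and CD45.1 cells. CD45.2 marks host origin, so a host-derived blood cell that escaped ablation would carry it too. In bulk RNA, fewer cells of a type and less RNA per cell cannot be told apart.

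Resident heart macrophages settle before birth or slowly afterwards and maintain themselves largely by local division. They clear dying cells and debris, and are known for Timd4, Lyve1, Folr2 and Cd163. After infarction, monocytes enter the tissue in large numbers, and dying muscle, low oxygen and new matrix make the infarct zone a different setting from the remote wall, which kept its blood flow.

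The 6 resident libraries held 33253340 to 55418128 counts. Values are given as CPM, counts relative to the TMM-scaled library total, in the order of the 3 library sets S104-S107, S108-S111 and S112-S115, each of which holds 1 library of every group. A gene was called when edgeR's quasi-likelihood test over all 12 libraries gave an adjusted p under 0.05, and errors of log2 fold changes are standard errors with n = 3 libraries per zone. Libraries of 1 set deviated together, so counts are also given with the set as a replicate block. The labels tie neither sets nor libraries to animals, so the p-values measure the spread between libraries, which may in part be technical. In the libraries of set S108-S111 the Y-linked Ddx3y lay at 62.1 CPM or more, while Xist marked the other sets at 32.9 CPM or more, and both zones of a set were alike in this.

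The gate showed in the RNA. Adgre1, which encodes F4/80, lay at 1713, 1135 and 1359.8 CPM in remote and 1104, 999 and 1137 CPM in infarct libraries, and Fcgr1, which encodes CD64, at 129, 126 and 119 CPM in remote and 186, 163 and 192 CPM in infarct libraries. Of 8 sorted-macrophage markers only Csf1r, the receptor for the growth factor that keeps macrophages alive, was called, and with the block Fcgr1 was also higher. Csf1r fell, from 4277, 4799.8 and 4596 CPM to 2386, 3093 and 3178 CPM (log2 fold change -0.66 ± 0.14, adjusted p = 0.042). Its call was lost in 14 of 25 alternative fits, including nearly every fit that left out a single library. On the first principal component of the 6 libraries (44.46% of the variance) set S104-S107 stood apart from the rest, and the second (21.1%) separated the zones.

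**Figure D1:**
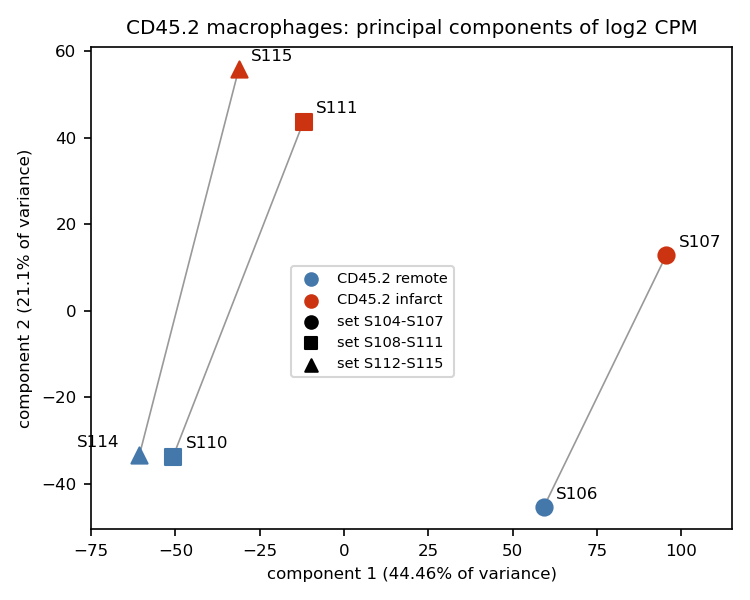
Principal components of log2 CPM in the 6 CD45.2 libraries; color gives the zone, shape the library set, and lines join libraries of 1 set. Remote libraries lie between -45.37 and -33.29 on the second component and infarct libraries between 12.83 and 55.84, while S106 (59.17) and S107 (95.51) lie apart on the first.

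Most genes that differed between the zones were higher in the infarct zone. Of 18773 genes tested, 275 (1.46%) were higher and 55 (0.293%) lower in the infarct zone. Rises were also larger: their median log2 fold change was 1.68, and 96 exceeded 4-fold, against a median of -0.78 and 3 genes over 4-fold among the falls. With the set as a block, 950 genes (5.06%) were higher and 507 (2.70%) lower, and these held all 275 and 55 of the first call. The 3 infarct libraries lay above the 3 remote ones for each of the 275 genes, and below them for each of the 55. Across all genes, 10.0% separated upward and 8.93% downward. The calls were made on these same libraries, so the separation describes the called genes and is no test. Of the called genes 110 rises and 17 falls share exons with another gene, whose reads they may hold. Among them are Csf1r, Apol7d, Gpat3, Bhlhe40, Uck2, Ndrg1, Mmp12, Thbs1, Ctsl, Tgm2, F13a1, Rhobtb1 and Xirp2. The size of the call depended on single libraries. It was 1099 genes without CD45.2 remote replicate 1, and 124 and 162 without remote replicates 2 and 3. Leaving out CD45.2 infarct replicates 1, 2 and 3 gave 161, 170 and 211, and leaving out CD45.1 infarct replicate 3 gave 213. Of the 330 calls 229 were lost in at least 1 fit that left out a single library, 210 of them without CD45.2 remote replicate 2, 186 without remote replicate 3, and 174, 170 and 131 without infarct replicates 1, 2 and 3. Among the calls named in the text, those that held in every such fit were Apol7d, Bhlhe40, Chil3, Clec4e, F10, Flrt3, Fn1, Gpat3, Hp, Igf2r, Igfbp4, Il7r, Itgax, Mmp14, Mmp8, Osm, Sdc1, Tnfsf14, Uck2, Vcan and Xirp2, and every other one was lost in at least 1. Fitted on the 6 resident libraries alone without the block, 26 genes passed (24 up, 2 down), and with the block 1694, of which 920 were higher and 774 lower, a more even split.

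Among called genes at 10 CPM or more the largest fold was that of Rhov, an atypical small GTPase, at 0.757, 1.73 and 0.208 CPM in remote and 5.92, 16.6 and 11.6 CPM in infarct libraries (log2 fold change 3.68 ± 0.79, adjusted p = 0.0396). The call of Rhov was lost in 13 of 26 alternative fits. They included the fit without set S104-S107 and most fits that left out a single library. Nt5e, the ectoenzyme CD73 that turns AMP into adenosine, lay at 3.92, 2.34 and 1.07 CPM in remote and 42.6, 24.2 and 11.6 CPM in infarct libraries (log2 fold change 3.42 ± 0.69, adjusted p = 0.0306). Met, the receptor for hepatocyte growth factor, lay at 0.549, 2.42 and 0.451 CPM in remote and 6.56, 17.9 and 10.3 CPM in infarct libraries (log2 fold change 3.35 ± 0.65, adjusted p = 0.0253). The rule that picked these 3 genes required the lowest infarct library to lie above the highest remote library. The infarct libraries themselves differed more than 2-fold in each. Il7r, a subunit of the interleukin-7 receptor, was tighter, at 1.40, 3.12 and 1.35 CPM in remote and 11.8, 14.4 and 17.7 CPM in infarct libraries (log2 fold change 2.91 ± 0.36, adjusted p = 0.00232). Flrt3, a transmembrane adhesion and guidance molecule, rose by 2.99 ± 0.39 on the log2 scale, and Igf2r, which sorts lysosomal enzymes and takes up insulin-like growth factor 2, by 2.87 ± 0.39. Sdc1, a heparan sulfate proteoglycan, lay at 3.67, 3.88 and 3.64 CPM in remote and 20.2, 24.8 and 26.5 CPM in infarct libraries (log2 fold change 2.68 ± 0.37, adjusted p = 0.00414), and no infarct library came near a remote one. Pdpn, the ligand of the platelet receptor CLEC-2, rose by 2.65 ± 0.42, and Gpat3, an acyltransferase of triglyceride synthesis, by 2.88 ± 0.41.

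**Figure D2:**
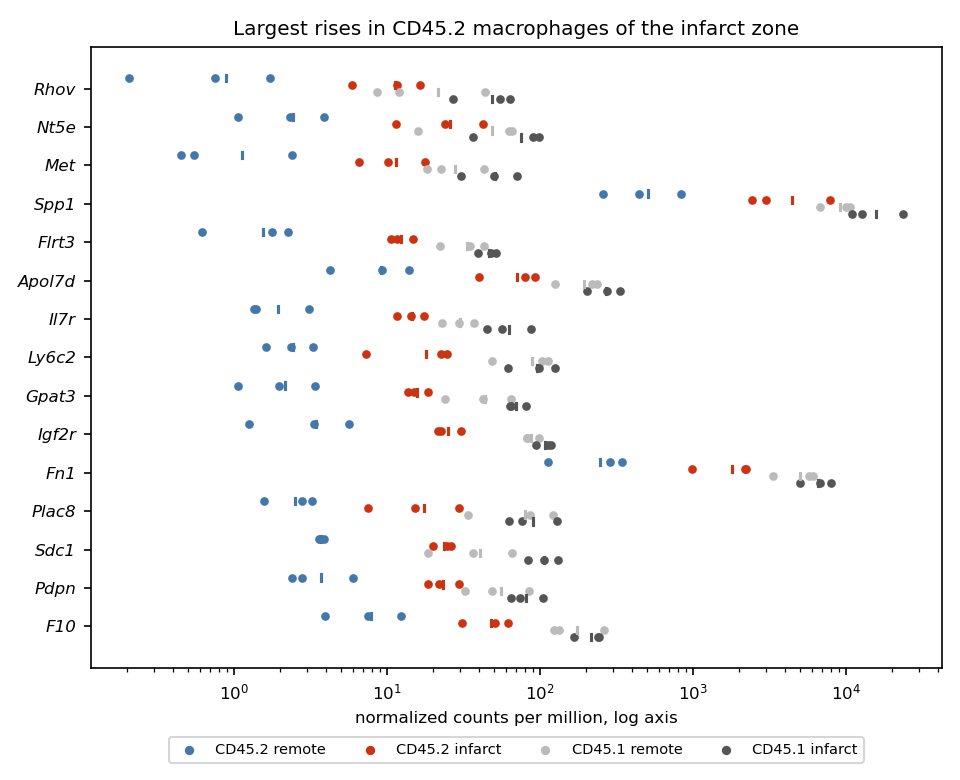
CPM (log axis) of the 15 genes with the largest rises by the rule for named genes; points are libraries, ticks are means of 3, and the CD45.1 groups are drawn in grey for reference. For Spp1 the resident remote libraries lie between 258 and 835 CPM and the infarct libraries between 2435 and 7905 CPM; in each gene the resident infarct mean lies between the resident remote mean and the CD45.1 infarct mean.

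Matrix genes and the proteases that cut them rose in part. Of 34 tested, 10 rose and none fell (median log2 fold change 0.77, against 0.02 over all genes). With the block 12 rose and 1, Timp2, fell. Of the 10, Fn1, Vcan and Thbs1 are also in the list of monocyte markers and Mmp8 in that of neutrophils. Spp1, which encodes the secreted matrix protein osteopontin, lay at 835, 446 and 258 CPM in remote and 7905, 3015 and 2435 CPM in infarct libraries (log2 fold change 3.12 ± 0.54, adjusted p = 0.0152). Fn1, fibronectin, lay at 345, 289 and 113.7 CPM in remote and 2213, 2221 and 997 CPM in infarct libraries (log2 fold change 2.86 ± 0.44, adjusted p = 0.00727). Set S104-S107 held the highest Spp1 value in both zones, and S112-S115 the lowest. Exons of Spp1 and of Fn1 overlap those of another gene, so their counts may hold reads of it. Among proteases, Mmp14, which sits in the membrane and activates other metalloproteinases, lay at 62.8, 38.0 and 36.7 CPM in remote and 189, 139 and 124 CPM in infarct libraries (log2 fold change 1.72 ± 0.25, adjusted p = 0.00526). Mmp12, the macrophage elastase, lay at 26.6, 23.6 and 36.4 CPM in remote and 107.04, 64.3 and 94.3 CPM in infarct libraries (log2 fold change 1.62 ± 0.30, adjusted p = 0.0217). Timp1, an inhibitor of these enzymes, rose with them, from 4.37, 3.41 and 2.37 CPM to 12.7, 10.4 and 17.7 CPM (log2 fold change 2.01 ± 0.36, adjusted p = 0.0164). The remaining calls were Mmp8, Vcan, Thbs1, Mmp19 and Adam8.

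Lipid-associated macrophage genes, a set known from macrophages that take up lipid and debris, had the highest median of the 24 pathway lists, below those of the monocyte and neutrophil markers. Of 24 tested, 5 were called, all up (Spp1, Itgax, Lgals3, Syngr1 and Ctsl; median 0.79), and 13 with the block. Lgals3, the lectin galectin-3, lay at 487, 299 and 264 CPM in remote and 1088, 860.2 and 957 CPM in infarct libraries (log2 fold change 1.47 ± 0.23, adjusted p = 0.00752). Itgax encodes CD11c, which the study's gate counts among the lineage markers sorted away. Its RNA lay at 10.2, 9.18 and 8.75 CPM in remote and 30.6, 37.5 and 30.1 CPM in infarct libraries (log2 fold change 1.80 ± 0.23, adjusted p = 0.00232) and was called under each of the alternative fits. Gpnmb, a lysosomal and surface glycoprotein of such cells, had 34.5, 11.9 and 27.9 CPM in remote and 66.3, 77.1 and 136 CPM in infarct libraries (adjusted p = 0.0982, and 0.00736 with the block). Fabp5, a fatty acid carrier, had 33.1, 13.5 and 20.8 CPM in remote and 105.5, 39.98 and 81.0 CPM in infarct libraries (adjusted p = 0.0696, and 0.000459 with the block). The summed level of the list went from 28310, 32140 and 35340 CPM in remote to 38930, 28030 and 34480 CPM in infarct libraries, higher only in set S104-S107. In CD45.1 macrophages the median of the same list was close to 0.

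Some adhesion receptors also rose. Of 25 integrin and leukocyte adhesion genes, 5 were called up (Itgax, Cd24a, Itgb7, Alcam and Itga6) and none down. With the block 10 rose and 1, Vcam1, fell. Itgb7, a partner of integrin alpha 4 in leukocyte homing, lay at 9.70, 14.3 and 11.4 CPM in remote and 32.8, 59.6 and 52.1 CPM in infarct libraries (log2 fold change 2.03 ± 0.34, adjusted p = 0.0117). Alcam, an adhesion molecule of activated leukocytes, lay at 20.1, 25.4 and 17.9 CPM in remote and 73.0, 41.4 and 39.5 CPM in infarct libraries (log2 fold change 1.28 ± 0.24, adjusted p = 0.0226), but did not pass without set S104-S107, without infarct replicate 1 or without remote replicates 2 or 3.

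Some inflammatory mediators rose. Of the 17 genes tested in the list of inflammatory cytokines 5 rose and none fell, the cytokine genes Osm, Tnfsf14, Il1rn and Csf3 and Ptgs2, which encodes the prostaglandin enzyme cyclooxygenase, and with the block Il1a rose too. Osm, oncostatin M, a cytokine of the interleukin-6 family, lay at 67.4, 61.0 and 47.0 CPM in remote and 176, 165 and 152 CPM in infarct libraries (log2 fold change 1.49 ± 0.22, adjusted p = 0.00524). Il1rn, the antagonist of the interleukin-1 receptor, lay at 73.6, 22.6 and 26.9 CPM in remote and 229, 146 and 151 CPM in infarct libraries (log2 fold change 2.09 ± 0.40, adjusted p = 0.0246), whereas Il1b itself had a log2 fold change of -0.25 ± 0.37 (adjusted p = 0.804), Tnf of 0.23 ± 0.18 (0.568) and Il6 of -0.20 ± 0.49 (0.885). Csf3, the neutrophil growth factor, had no count in the 3 remote libraries and 0.170, 0.277 and 0.0540 CPM in the infarct ones. None of 22 chemokine genes was called, while Cxcl3, Ccl2 and Ccl7 rose with the block (3 of 22), among them Ccl2, the main attractant of monocytes, with 508, 392 and 327 CPM in remote and 1259, 995 and 783 CPM in infarct libraries (adjusted p = 0.113, and 0.013 with the block). Of 32 interferon-response genes none was called by either fit, and their median log2 fold change was 0.18.

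Of 30 genes of defence and pattern recognition 5 rose and none fell, the C-type lectin receptors Clec4e and Clec4d and the secreted proteins Chil3, Hp and Slpi, while the median of the list was 0.13 and 16 of 30 fold changes were positive. Chil3 and Hp are also in the list of monocyte markers. Clec4e, known as Mincle, binds mycobacterial glycolipid and a protein of dead cells. It lay at 19.7, 19.5 and 17.9 CPM in remote and 91.8, 82.7 and 103.3 CPM in infarct libraries (log2 fold change 2.28 ± 0.18, adjusted p = 0.000319), and it was called under each alternative. Its relative in the same receptor family, Clec4d, lay at 34.0, 19.3 and 18.8 CPM in remote and 105.5, 52.9 and 63.5 CPM in infarct libraries (log2 fold change 1.62 ± 0.31, adjusted p = 0.0244). With the block 7 of the 30 rose and 4 fell, the falls being the endosomal or surface sensors Tlr5, Tlr7 and Tlr8 and the oxidase subunit Cybb. Among transcription factors, Nr4a2, an orphan nuclear receptor induced early by stimulation, lay at 6.24, 6.22 and 3.76 CPM in remote and 20.4, 13.4 and 14.6 CPM in infarct libraries (log2 fold change 1.58 ± 0.32, adjusted p = 0.0311), and Bhlhe40, a repressor of the clock and of interleukin-10, at 12.9, 11.2 and 9.57 CPM in remote and 45.14, 51.0 and 40.6 CPM in infarct libraries (log2 fold change 2.02 ± 0.17, adjusted p = 0.000624).

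Genes of glycolysis and the hypoxia response leaned upward. Of 34 tested, Ndrg1 and Vegfa were called by the fit without the block, and 13 with it, none of them down (median 0.49; 0.07 in CD45.1). Vegfa, the main growth factor of vessels, lay at 4.29, 7.78 and 2.88 CPM in remote and 28.1, 16.7 and 26.2 CPM in infarct libraries (log2 fold change 2.25 ± 0.42, adjusted p = 0.0226), and Ndrg1, a classic hypoxia-induced gene, at 11.9, 7.89 and 15.8 CPM in remote and 27.2, 30.3 and 26.6 CPM in infarct libraries (log2 fold change 1.24 ± 0.22, adjusted p = 0.0187). Neither call held without set S104-S107, with or without the block. Ndrg1 was also lost without infarct replicate 1, infarct replicate 2 or remote replicate 2, and Vegfa without infarct replicate 1, infarct replicate 3 or remote replicate 3. The glucose importer Slc2a1 had 62.9, 23.5 and 24.9 CPM in remote and 162, 91.1 and 68.5 CPM in infarct libraries (adjusted p = 0.0961, and 0.00247 with the block). The lactate exporter Slc16a3 had 74.5, 28.5 and 24.2 CPM in remote and 139, 110.96 and 86.5 CPM in infarct libraries (adjusted p = 0.0903, and 0.00414 with the block). Set S104-S107 held the highest value of both genes within each zone, and its remote library lay near the lowest infarct library. Glycolytic enzymes that rose with the block were Tpi1, Pgam1, Pgk1, Ldha, Pkm, Pfkl and Aldoa. Of 34 nuclear subunits and carriers of oxidative phosphorylation 1 did, the electron carrier gene Cycs, although 33 fold changes were positive (median 0.15).

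Hypoxia-inducible factors bind the core ACGTG. The promoter windows (250 bases before to 50 after the start, RefSeq, GRCm38.p6) of the 4 list members with the smallest adjusted p that had an entry are shown so that the core can be seen in its place. Ndrg1 and Ero1l had no entry. Capitals mark ACGTG on either strand (read as CACGT on the other), and the core also lies within the E-box CACGTG. The Vegfa window is chr17:46032328-46032627, minus strand. That of Egln3, an oxygen-sensing prolyl hydroxylase, is chr12:54203825-54204124, minus strand. That of Slc16a3 is chr11:120948817-120949116, plus strand, and that of Slc2a1 chr4:119108495-119108794, plus strand.
Vegfa: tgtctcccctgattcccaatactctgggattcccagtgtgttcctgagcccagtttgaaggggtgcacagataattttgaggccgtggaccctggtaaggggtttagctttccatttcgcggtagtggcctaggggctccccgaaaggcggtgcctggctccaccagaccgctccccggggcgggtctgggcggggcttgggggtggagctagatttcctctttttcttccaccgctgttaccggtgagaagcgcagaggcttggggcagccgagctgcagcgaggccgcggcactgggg
Egln3: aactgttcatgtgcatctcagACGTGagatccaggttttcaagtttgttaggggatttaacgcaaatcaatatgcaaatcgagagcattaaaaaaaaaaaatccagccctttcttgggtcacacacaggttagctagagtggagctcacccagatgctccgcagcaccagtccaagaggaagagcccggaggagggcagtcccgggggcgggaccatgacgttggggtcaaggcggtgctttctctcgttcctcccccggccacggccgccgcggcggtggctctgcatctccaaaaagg
Slc16a3: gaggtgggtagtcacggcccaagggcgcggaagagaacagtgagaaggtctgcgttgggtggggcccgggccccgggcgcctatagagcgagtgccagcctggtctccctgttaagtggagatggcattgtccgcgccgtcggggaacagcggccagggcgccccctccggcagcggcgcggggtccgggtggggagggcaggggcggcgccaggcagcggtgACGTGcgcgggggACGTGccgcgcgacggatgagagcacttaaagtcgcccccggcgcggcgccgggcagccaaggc
Slc2a1: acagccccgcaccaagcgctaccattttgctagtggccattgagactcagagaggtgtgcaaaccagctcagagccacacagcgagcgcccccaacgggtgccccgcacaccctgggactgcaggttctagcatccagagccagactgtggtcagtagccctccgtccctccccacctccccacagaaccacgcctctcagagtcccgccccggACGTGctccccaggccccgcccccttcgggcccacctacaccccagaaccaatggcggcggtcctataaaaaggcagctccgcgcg
Slc16a3 had 2 cores close to the start, at -27 and -14, Slc2a1 had 1 at -36, and Egln3 had 1 at -229. The window of the first Vegfa start held none, and that of a second Vegfa start held 1. Over the list 25 of 45 windows (55.6%) held the core, compared with 24.3% of 14738 windows of all tested genes. The list was picked as genes of glycolysis and the hypoxia response, so this share describes the choice of list and not the zones. Of windows of genes higher in the infarct zone 32.5% of 240 held the core, and of genes lower in it 21.7% of 69. The E-box CACGTG, which holds the core, lay in 13.3% and 10.1% of these windows. It lay in 6.67% of the windows of the list and in 9.46% of those of all tested genes. These are counts of letters and do not show that a factor bound.

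Genes of resident identity leaned downward, though few passed without the block. Of 33 tested, some of which the study itself named from these libraries, F13a1 was the 1 gene called. With the block 17 fell and none rose, and 32 of 33 fold changes were negative (median -0.93). The summed level of the list was 28180 to 28930 CPM in the remote and 15100 to 19120 CPM in the infarct libraries. F13a1, a transglutaminase that cross-links fibrin, lay at 7672, 6463 and 6024 CPM in remote and 3277, 3802 and 4183 CPM in infarct libraries (log2 fold change -0.84 ± 0.16, adjusted p = 0.0258). Timd4, a receptor for phosphatidylserine on dying cells, had 155, 185 and 144 CPM in remote and 43.5, 60.5 and 87.6 CPM in infarct libraries (adjusted p = 0.0696, and 0.0128 with the block). Lyve1, a hyaluronan receptor, had 1839, 1463 and 1545 CPM in remote and 588, 645 and 993 CPM in infarct libraries (adjusted p = 0.0969, and 0.0289 with the block). Cd163, the scavenger receptor for hemoglobin bound to haptoglobin, had 1296, 1557 and 1419.5 CPM in remote and 527, 717 and 816 CPM in infarct libraries (adjusted p = 0.0996, and 0.0416 with the block). For each of these the infarct libraries lay below the remote ones in every set, and above the CD45.1 infarct mean. Retnla, with 29.3, 167 and 105.1 CPM in remote and 7.38, 53.5 and 57.0 CPM in infarct libraries, did not pass with either fit, and its remote libraries differed more than 5-fold. In CD45.1 macrophages, where the summed level of these genes was 6897 to 10880 CPM, the list's median was -0.90, and 7 members fell with the block.

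The largest falls among called genes at 10 CPM or more were near 2-fold. Igfbp4, a binding protein of insulin-like growth factors, had the smallest adjusted p among them, at 380.2, 365 and 382 CPM in remote and 205, 179 and 224 CPM in infarct libraries (log2 fold change -0.89 ± 0.13, adjusted p = 0.00464). Gprc5c, an orphan receptor, fell most of these, from 46.2, 59.9 and 53.1 CPM to 15.1, 18.8 and 32.8 CPM (log2 fold change -1.25 ± 0.28, adjusted p = 0.0454). Alox5, which starts leukotriene synthesis, lay at 703, 529 and 594 CPM in remote and 280.1, 342 and 397 CPM in infarct libraries (log2 fold change -0.84 ± 0.16, adjusted p = 0.0245), and Sgpp1, which removes the phosphate of sphingosine-1-phosphate, at 381, 364 and 370.3 CPM in remote and 161, 210.1 and 234 CPM in infarct libraries (log2 fold change -0.88 ± 0.16, adjusted p = 0.0187). Ctsf, a lysosomal cysteine protease, lay at 105.4, 115.5 and 108.98 CPM in remote and 42.1, 57.3 and 63.2 CPM in infarct libraries (log2 fold change -1.02 ± 0.19, adjusted p = 0.023), and Maoa, which degrades monoamines, at 36.1, 43.9 and 29.7 CPM in remote and 22.1, 17.5 and 17.4 CPM in infarct libraries (log2 fold change -0.94 ± 0.19, adjusted p = 0.0318). The ETS factor Etv1, the small-GTPase-related genes Plekhg5, Stard8 and Rhobtb1, and the B-cell adaptor Bank1 fell by 0.86, 1.18, 0.86, 0.96 and 1.05 on the log2 scale. Of the 15 largest falls 14 lost their call in at least 1 fit that left out a single library, Igfbp4 being the exception, and of the 15 largest rises 7 did. Fitted on the 6 resident libraries alone without the block, 13 of these falls and 14 of these rises lost their call.

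**Figure D3:**
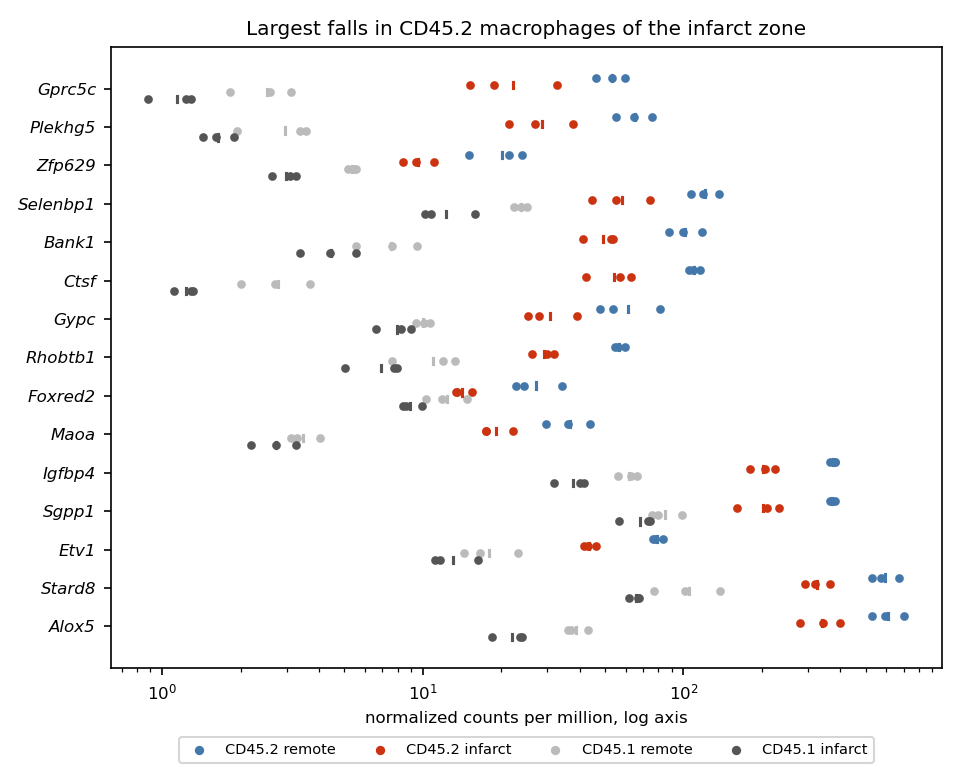
CPM (log axis) of the 15 genes with the largest falls by the rule for named genes, drawn as in the plot of the rises. For Igfbp4 the resident remote libraries lie at 380.2, 365 and 382 CPM and the infarct libraries at 205, 179 and 224 CPM, above the CD45.1 means of 61.7 and 37.8 CPM.

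Antigen presentation and complement leaned downward. Of 16 genes of MHC class II presentation H2-Eb2 was called, at 0.341, 8.13 and 14.1 CPM in remote and 0.0188, 0.0277 and 0.162 CPM in infarct libraries (log2 fold change -6.63 ± 1.24, adjusted p = 0.0226), and its remote libraries themselves spanned more than 20-fold. With the block 4 genes of the list fell. H2-Aa, which encodes a class II alpha chain, had 551, 2792 and 2566 CPM in remote and 316, 1178 and 1243 CPM in infarct libraries (adjusted p = 0.402, and 0.0442 with the block). Within each set the infarct library was lower, but set S104-S107 was lower than the others in both zones. Of 21 complement genes, C1ra fell and Itgax, a chain of a complement receptor, rose, and with the block 6 fell and 2 rose. In efferocytosis, the uptake of dying cells, members went both ways: Tgm2, a transglutaminase that aids uptake, rose from 153, 63.3 and 64.3 CPM to 429.5, 335 and 332 CPM (log2 fold change 1.96 ± 0.37, adjusted p = 0.0226), while Pros1, which bridges dying cells to Mertk, fell from 380.3, 348 and 359 CPM to 199.5, 219.9 and 255 CPM (log2 fold change -0.69 ± 0.15, adjusted p = 0.0407). With the block 4 of 25 rose and 3 fell. Mertk, the receptor, had 145, 132 and 156 CPM in remote and 126, 106.1 and 141 CPM in infarct libraries (adjusted p = 0.672).

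In the other lists few or no genes passed. None of 38 cell-cycle genes was called, and with the block Ccnd1 alone. None of 58 cytosolic ribosomal protein genes was called, although 57 had a positive fold change, compared with 9746 of all 18773 genes (list median 0.34); 9 rose with the block. Of chaperones and other genes of the unfolded protein response none of 22 was called, 20 were positive, and 9 rose with the block, among them Hyou1 and Hspa5. Of 10 genes of cholesterol efflux 3 fell with the block (Pltp, Mylip and Abca9). Of 28 genes of antioxidant defence, iron and heme 5 rose and 2 fell with it, and of 30 amino acid supply genes 5 rose. In the immediate early and heat shock list Nr4a2 and Fosl2 rose (of 32; 4 up and 2 down with the block), while the median was -0.44. Of 30 growth factor and vessel genes 2 rose, Vegfa and Met, and 7 with the block. Of 32 lysosomal genes 2 rose, and with the block 5 rose and 1 fell. Of 25 inhibitors of NF-kappa-B and cytokine signalling 2 rose, and with the block 3 rose and 1 fell. None of 23 genes of cholesterol synthesis and uptake was called, and 2 rose with the block.

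**Figure D4:**
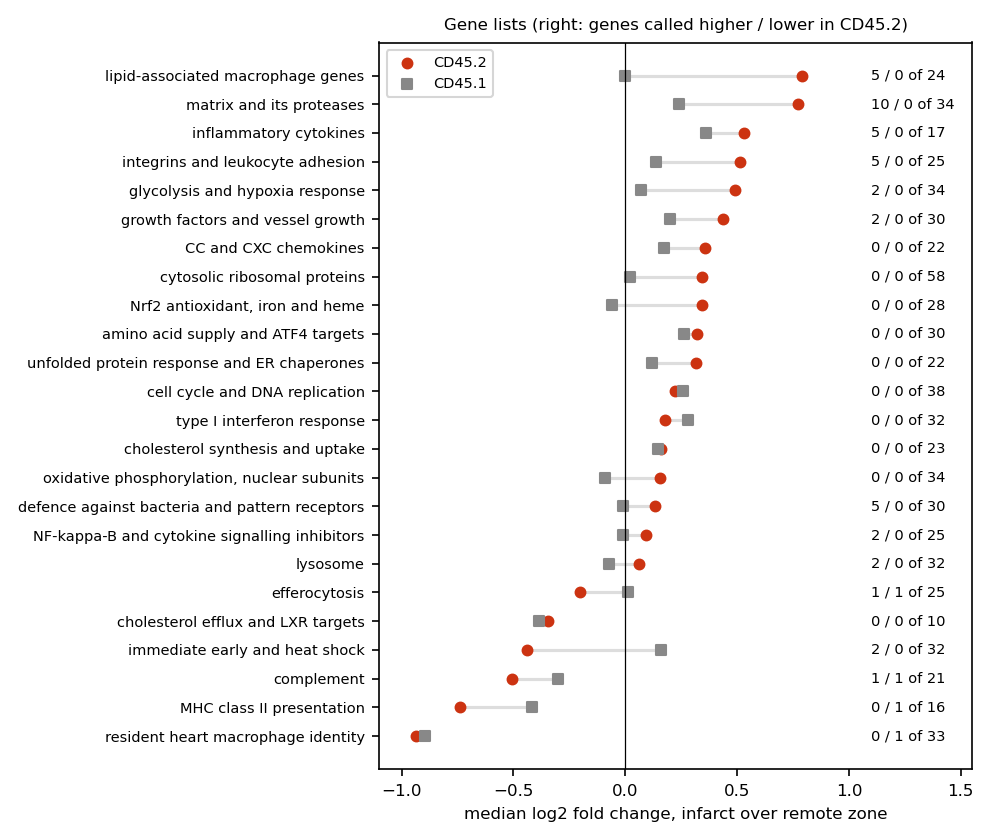
Median log2 fold change (infarct over remote zone) of 24 gene lists in CD45.2 (red circles) and CD45.1 macrophages (grey squares), with the genes called higher and lower in CD45.2 without the block on the right. Lipid-associated genes (0.79) and matrix genes (0.77) lie at the top for CD45.2, and resident identity at the bottom in both populations (-0.93 and -0.90).

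Markers of classical monocytes rose in the same libraries. Of 15 tested, 9 were called up and none down (median 2.18; 0.04 in CD45.1), and 13 rose with the block. Their summed level was 606 to 1029 CPM in the resident remote, 3432 to 4039 CPM in the resident infarct, and 13570 to 18840 CPM in all CD45.1 libraries. Ly6c2, the surface protein that defines these monocytes, lay at 1.63, 2.36 and 3.29 CPM in remote and 7.29, 22.6 and 24.6 CPM in infarct libraries (log2 fold change 2.90 ± 0.49, adjusted p = 0.013). Chil3, a chitinase-like secreted protein, lay at 78.5, 71.1 and 60.8 CPM in remote and 209, 288 and 456 CPM in infarct libraries (log2 fold change 2.18 ± 0.27, adjusted p = 0.00232). Ccr2, the receptor for Ccl2, had 106.7, 192 and 139.9 CPM in remote and 194, 378 and 326 CPM in infarct libraries (adjusted p = 0.129, and 0.000275 with the block). The infarct means of Ly6c2, Chil3, Vcan, Plac8 and F10 in CD45.2 cells were 19.0%, 13.9%, 19.5%, 19.6% and 22.2% of the CD45.1 infarct means. In the remote zone the same shares were 2.74%, 3.17%, 4.09%, 3.14% and 4.57%. Over all 15 markers the shares were less even. They ran from 12.2% (Cd177) to 87.1% (Itga4) in the infarct zone. In the remote zone they ran from 0.927% (Ly6i) to 79.2% (Itga4). Itga4 had a negative fold change (log2 -0.37, adjusted p = 0.36). The list also holds Fn1 and Thbs1, which macrophages express too. The part of monocyte-derived host cells, or of CD45.1 cells or RNA in the CD45.2 sort, in the rises was not tested.

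The same position between the groups held for most called genes. Of the 275 genes higher in the infarct zone, 265 (96.4%) had a CD45.2 infarct mean below the CD45.1 infarct mean, compared with 47.1% of all genes tested, and the median gene reached 40.4% of the CD45.1 level (quartiles 29.3% and 54.4%). In the remote zone all 275 were lower in CD45.2 than in CD45.1. Of the 55 genes lower in the infarct zone 52 still had a CD45.2 infarct mean above that of CD45.1. These genes were called on the CD45.2 libraries, so the shares describe them and are no test. With 10 CPM or more in the infarct zone, no called gene had all 3 resident infarct libraries above all 6 CD45.1 libraries. With the block 5 did, found after the values were seen: Ch25h, Gm26902, Ppfibp1, Ccnd1 and Nop14. Ch25h, which makes 25-hydroxycholesterol, had 97.3, 78.7 and 70.4 CPM in remote and 229.7, 185 and 121 CPM in infarct libraries, against CD45.1 means of 13.8 and 26.3 CPM in the remote and infarct zone (log2 fold change 1.12 ± 0.36, adjusted p = 0.159, and 0.00857 with the block). Ccnd1, cyclin D1, had 94.8, 55.3 and 57.3 CPM in remote and 159, 86.3 and 67.5 CPM in infarct libraries, against CD45.1 means of 21.7 and 25.1 CPM (adjusted p = 0.401, and 0.0449 with the block). All 5 genes share exons with another gene. The spans of Ch25h and Gm26902 overlap on chromosome 19, so the counts of both may hold the same reads.

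Other cell types left a smaller trace. Heart muscle transcripts summed to 339.6 to 497.9 CPM in the remote and 523.9 to 621.4 CPM in the infarct libraries, with Atp2a2, a calcium pump that other cells also use, as the most abundant member in every one. The other listed muscle genes summed to 144.6, 166.4 and 261 CPM in remote and 151.1, 190.5 and 252.1 CPM in infarct libraries, which overlapped. Among them, Myl7 lay at 0.5865, 0.2259 and 5.216 CPM in remote libraries and at 0 CPM in each infarct library. The CD45.1 libraries had 0.6518, 0.05 and 0.3781 CPM of it in remote and 0 CPM in infarct ones. Fold changes were positive for 12 of the 31 muscle genes tested. Of 31 tested Xirp2 was called (2 up and 1 down with the block), which encodes a protein of muscle cell contacts, at 0.151, 0.123 and 0.173 CPM in remote and 3.79, 2.85 and 3.63 CPM in infarct libraries (log2 fold change 4.49 ± 0.32, adjusted p = 0.000262), while Tnnt2, cardiac troponin T, had 13.4, 13.9 and 24.2 CPM in remote and 11.8, 16.7 and 25.1 CPM in infarct libraries (adjusted p = 0.95). Of 11 neutrophil genes Mmp8 was called and 4 rose with the block, and 9 fold changes were positive (median 1.07). The listed neutrophil genes summed to 179 to 215 CPM in remote and 163.8 to 323.3 CPM in infarct libraries. Lcn2 had 1.968, 1.109 and 1.646 CPM in remote and 4.239, 4.648 and 4.174 CPM in infarct libraries. S100a9, their most typical transcript, had 3.46, 0.452 and 0.0173 CPM in remote and 5.46, 0.443 and 0.828 CPM in infarct libraries. Fibroblast genes summed to 761.5 to 1225 CPM in the remote and 660.1 to 1979 CPM in the infarct libraries, with none of 19 called by either fit. Gsn, the actin-severing protein gelsolin, which is not limited to fibroblasts, was the most abundant member in every one. The other listed fibroblast genes summed to 159.1, 567.4 and 472.1 CPM in remote and 22.1, 351.9 and 1317 CPM in infarct libraries, lower than remote in 2 sets and higher in S112-S115. Col1a1 had 13.2, 35.7 and 29.5 CPM in remote and 0.867, 35.0 and 185 CPM in infarct libraries. Of 22 endothelial genes Rgcc was called, and it alone with the block, while 19 fold changes were positive (median 0.29, and 0.41 in CD45.1). The endothelial genes summed to 89.96 to 303.8 CPM in remote and 75.39 to 376.8 CPM in infarct libraries. No gene of T, NK and B cells (11 tested), dendritic cells (11), smooth muscle (13) or red cells (6) passed without the block, and with it 1 smooth muscle gene, Acta2, rose, and up to 11 of the 18 listed lymphocyte genes had no count in a library. The part of these cells in the changes was not tested. With the muscle level as a covariate 784 genes were called.

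The zone effect was then compared between the populations. In CD45.1 macrophages 0 genes (0%) passed, with 1486 at an unadjusted p under 0.05; DESeq2 called 190, and edgeR with the block 59 (0.314%). Of the 275 resident rises 237 were positive in CD45.1, at a median of 0.31, and 4 were called up there with the block. Of the 55 falls 52 were negative, at a median of -0.45, and 5 were called down with the block. The difference of the zone effects, tested by itself, passed for 0 genes (0%; 820 at an unadjusted p under 0.05; smallest adjusted p 0.0556); DESeq2 called 163, limma-voom 25, and edgeR with the block 94 (0.501%), of which 93 were larger in CD45.2. Among the 275 rises 74 differed with the block. Nearest to the threshold were Uck2, a kinase of uridine and cytidine, with 6.00, 3.22 and 4.59 CPM in remote and 25.3, 26.2 and 20.0 CPM in infarct libraries and CD45.1 means of 84.3 and 76.6 CPM (adjusted p of the difference 0.0556, and 0.00322 with the block), and Bhlhe40, with CD45.1 means of 121 and 141 CPM (0.0556, and 0.00322 with the block). For Clec4e the CD45.1 means were 214 and 296 CPM (0.0556, and 0.00968 with the block). The fit without the block thus did not show that the zones differed more in resident than in recruited macrophages for any single gene.

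**Figure D5:**
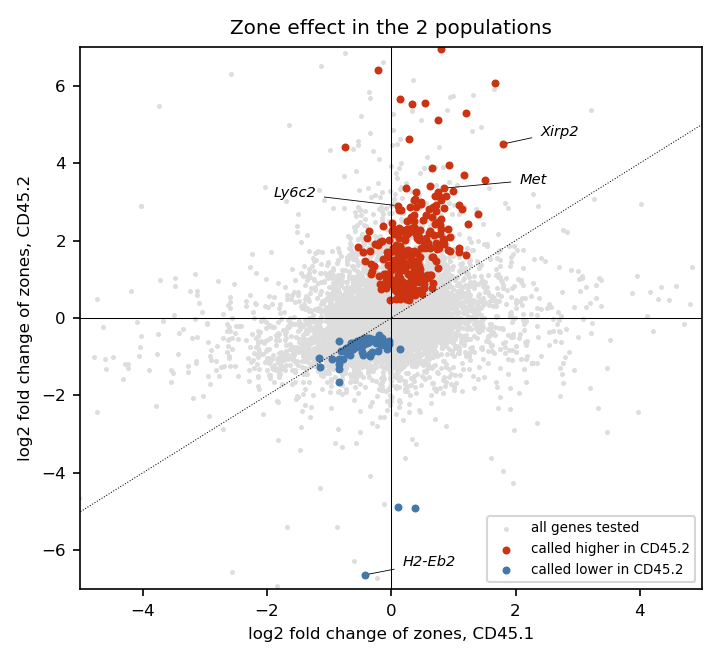
Log2 fold change of infarct over remote zone in CD45.1 (x axis) and CD45.2 macrophages (y axis); grey points are all genes tested, red and blue those called in CD45.2 without the block, and 35 genes, 3 of them called, lie outside the axes. The red points have a median of 0.31 on the x axis and 1.68 on the y axis, and the blue points medians of -0.45 and -0.78.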

How the data were processed

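Raw counts of 55487 genes in 12 libraries, as deposited by the authors, were the only input. By the study's methods, about 1000 sorted macrophages per sample gave SMART-Seq v4 cDNA; reads were trimmed, mapped to GRCm38.p6 (HISAT2 2.2.1) and assigned to genes with featureCounts (Subread 2.0.1). Every gene overlapped by 5 bases or more received the pair, without strand or molecular tags, so the 11722 genes whose exons overlap another gene's (GENCODE M21) may hold reads of it.

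With edgeR 4.0.16 (R 4.3.3), filterByExpr (10 counts; 15 in total) kept 18773 genes. TMM scaling and 1 quasi-likelihood fit of 4 group means gave both zone effects and their difference, with Benjamini-Hochberg adjustment at 0.05. Standard errors are the absolute log2 fold change over the square root of F. CPM are counts relative to the TMM-scaled library total, and the 6 CD45.2 libraries held 33253340 to 55418128 counts.

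Whether sets pair the libraries was checked by the deviations from group means: same-set pairs correlated at 0.566, 0.303 and 0.354, other pairs at -0.426 to 0.163. Named genes were the 15 largest rises and 15 largest falls among called genes at 10 CPM or more (no predicted genes, no overlap between zones), up to 4 members per list with the smallest adjusted p, 10 genes with the smallest adjusted p of the difference at 10 CPM or more, and the sorted markers; others were chosen after their values were seen. Members and lists were chosen with earlier results of these data known. The fits were tested on simulated counts. Alternatives used DESeq2 1.42.0, limma 3.58.1, other scalings, filters and library subsets.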

Additional observations from a re-analysis of the deposited data

How the results depend on the processing

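The 330 genes called between the zones in CD45.2 macrophages became 1154 with DESeq2, 674 with limma-voom, 784 with heart muscle level as a covariate and 213 without genes of overlapping exons; DESeq2 size factors (333), TMM factors that left out muscle, stromal, red cell and mitochondrial genes (328), no filter on low counts (413) and a filter at 1 CPM (408) moved it less. The 8 libraries without set S104-S107 gave 398, but only 188 of the 275 rises and 18 of the 55 falls were among them. With the replicate block, in a paired analysis by library set, 1457 were called in 12 libraries, 1694 in the 6 CD45.2 libraries, 2245 with the set nested in population and 819 in the 8 libraries without set S104-S107, an alternative chosen after seeing the data; the 6 CD45.2 libraries without the block gave 26. Leaving out each library in turn gave 124 to 1099. For CD45.1, 0 calls became 190 with DESeq2, 14 without a filter, 59, 284 and 18 with the block in 12 libraries, nested and in 8 libraries, 1 without overlapping genes, 5 without set S104-S107 and 0 to 2 leaving out each library. For the difference of the zone effects, 0 calls became 163 with DESeq2, 25 with limma-voom, 30 without a filter, 14 at 1 CPM, 94, 223 and 95 with the block in the same order, 30 with the muscle covariate, 35 without set S104-S107 and 0 to 60 leaving out each library.

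No called named gene changed direction under any alternative. Of 68 named genes called, 25 kept the call whichever single library was left out, among them Clec4e, Bhlhe40, Itgax, Sdc1 and Osm. In the 6 CD45.2 libraries without the block 53 of the 68 lost it. The set block in 12 libraries lost none of the named calls. Total counts overlapped between the zones. Genes under 1 CPM, such as Csf3, rest on few counts.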
